A study of Mus musculus with 4 samples.

Results

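The Msx1 and Lef1 cells of the embryonic mouse parotid gland were 299 mesenchymal cell barcodes out of 14884 barcodes kept in 4 single-cell RNA libraries. They were chosen by their own UMI counts, where a UMI (unique molecular identifier) stands for 1 RNA molecule caught in a droplet. In the parotid mesenchyme library, a barcode with at least 500 genes, at most 10% mitochondrial UMIs and at least 2 UMIs of Pdgfra and Col3a1 together was taken as mesenchymal. A mesenchymal barcode became a member when it held at least 3 UMIs of Msx1 and Lef1 together, fewer than 2 of Pax1 and fewer than 3 of Tbx18. The comparison cells were the 1380 barcodes of the same library with 0 UMIs of Msx1 and of Lef1 and the same limits on Pax1 and Tbx18. The levels of these 6 genes are therefore a description of the choice.

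The study described which cells make up the salivary glands of mouse embryos. Submandibular and parotid glands of ICR embryos at embryonic day 12, about 10 glands of each, were pooled and split with Dispase II into epithelium and mesenchyme, and each of the 4 tissues gave 1 droplet (10x Chromium) library. The embryos carried no named allele and received no treatment according to the labels, which do not give their sex. With 1 library per group there is no replicate, so no test between groups exists and no p-value is given. The 95% intervals cover counting error only, not differences between embryos, litters or dissections.

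Msx1 is a homeobox transcription factor gene of neural crest-derived mesenchyme in the jaws and tooth germs, where bone morphogenetic protein (BMP) signals from epithelium induce it and mesenchymal Bmp4 depends on it. Lef1 encodes a DNA-binding partner of beta-catenin, through which canonical WNT signals reach their target genes. Axin2 is a widely used WNT target, and its protein feeds back by promoting destruction of beta-catenin. In the GRCm38 (mm10) genome, with GENCODE annotation, Msx1 lies on chr5:37820485-37824583 (minus strand), Lef1 on chr3:131110471-131224356 (plus strand) and Axin2 on chr11:108920349-108950783 (plus strand).

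The 4 libraries held 1996 to 4971 barcodes each, with 14004908 to 39621166 UMIs in all. The parotid mesenchyme library held 4488 barcodes, of which 4421 were kept and 3557 were mesenchymal. Members made up 8.41% of the mesenchymal barcodes (exact Clopper-Pearson 95% interval 7.51 to 9.37). Members had a median of 7308 UMIs and 2552 genes, and comparison cells 5166 UMIs and 2076 genes, while the median mitochondrial share was 3.93% and 4.26%. Since a deeper barcode reaches 3 UMIs more easily, each named result was also computed against 299 comparison cells matched to the members on total UMIs. Kept barcode sequences were also found in the other libraries for 12, 23 and 32 barcodes of parotid mesenchyme (parotid epithelium, submandibular epithelium and submandibular mesenchyme), and 4 of these were members.

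Of the 6 general mesenchymal markers all were detected in members, and their summed level was 2145 UMIs scaled to CPM (the set's UMIs of those genes per 1000000 UMIs of the set) in members and 2729 CPM in comparison cells. The 9 epithelial markers summed to 9.23 CPM in members and 25.1 in comparison cells, and the 8 endothelial ones to 14.3 and 20.2, with 5 of the 8 at 0 UMIs in members. The 8 skeletal muscle markers in the files summed to 131 and 137 CPM, the 8 neural crest and glial ones to 71.3 and 123, with 5 at 0 in members, the 8 macrophage ones to 3.36 and 2.51, and the 8 mural ones to 108 and 85.7. Erythroid markers summed to 749.7 against 10062 CPM, although the median barcode held 5 and 4 of their UMIs, so a few comparison barcodes carried most of them.

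The pair was unevenly shared. Among members the Msx1 count ran from 0 to 22 UMIs with a median of 3, and the Lef1 count from 0 to 7 with a median of 1. Both genes were detected in 112 members, Msx1 without Lef1 in 147 and Lef1 without Msx1 in 40. Most members therefore carried 1 of the genes at this depth, and the summed threshold was met mainly by Msx1, which alone reached 3 UMIs in 212 members against 65 for Lef1. In all mesenchymal barcodes of the library a Lef1 UMI was found in 32.0% of the 266 with 3 or more Msx1 UMIs (26.4 to 37.9) and in 25.3% of the 2847 with none (23.7 to 26.9). The reverse shares, a Msx1 UMI in barcodes with 3 or more Lef1 UMIs or with none, were 32.2% (24.6 to 40.5) and 18.7% (17.2 to 20.2). Both pairs of shares were computed on barcodes of unequal depth.

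**Figure D1:**
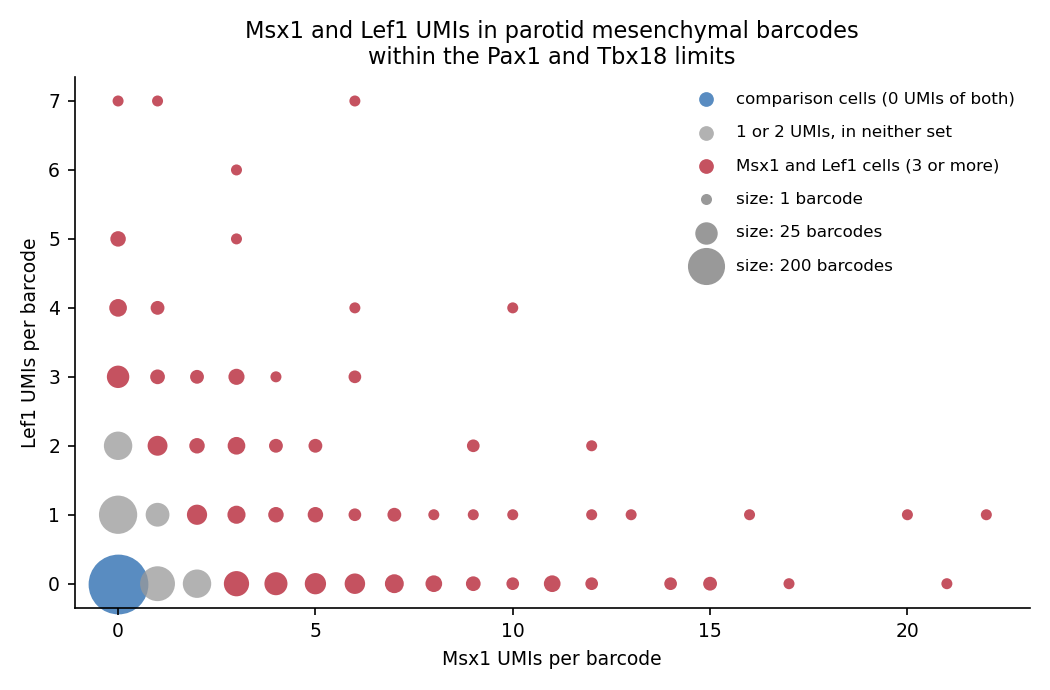
Each circle stands for the parotid mesenchymal barcodes, within the Pax1 and Tbx18 limits, that share a count of Msx1 UMIs (horizontal axis) and Lef1 UMIs (vertical axis), with area growing with the number of barcodes. Members (red) spread along both axes from 3 UMIs of the pair, with Msx1 reaching 22 and Lef1 reaching 7, while the 1380 comparison cells (blue) sit at 0 of both.

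The limits on Pax1 and Tbx18 mattered for who was counted. Of 450 mesenchymal barcodes with at least 3 UMIs of the pair, 42 were left out by Pax1, 115 by Tbx18 and 151 by either. In the submandibular mesenchyme library the same rule found 8 of 3661 mesenchymal barcodes (0.219%, 0.0944 to 0.430). There a Msx1 UMI was seen in 17 barcodes and a Lef1 UMI in 138, against 710 and 940 of the 3557 in the parotid library. With 1 library per gland, gland and library cannot be told apart.

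Members were set against comparison cells gene by gene, after summing UMIs over each set. Of 5738 genes with at least 20 CPM in either set, the 6 genes of the rule left aside, 233 (4.06%) differed by at least 2-fold, 114 higher in members (1.99%) and 119 lower (2.07%). The median log2 ratio over all 5738 genes was 0.02. This median and the shares of 1.99% and 2.07% are the background for the list counts against all comparison cells below. Against the matched comparison cells 59 genes were at least 2-fold higher in members. The share of all genes and the all-gene median are not given for that comparison. List counts and medians against matched cells below therefore stand without a background. The 15 highest and 10 lowest ratios were named by a rule that left out haemoglobin, mitochondrial and ribosomal genes, unnamed gene models, sex-linked and dissociation response genes, and genes over 10 times higher in another cell type of the library.

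Transcription factor genes of the face and jaws led the higher side. Pax9, a paired-box gene required for teeth and palate (chr12:56691767-56712822), stood at 159 CPM (144 to 176) in members and 10.5 CPM (8.42 to 13.1) in comparison cells, a ratio of 15.1-fold (11.9 to 19.4). A Pax9 UMI was found in 47.5% of members and 4.13% of comparison cells, and, after thinning every barcode to 4000 UMIs, in 97 of 293 (33.1%) and 33 of 1103 (2.99%). As a background, it was found at the same thinned depth in 0 of 171 skeletal muscle-marker cells and 5 of 96 epithelial-marker cells of the library, whose median depths were 14470 and 7669 UMIs before thinning. The share in members was above that of epithelial-marker cells (5.21%, 1.71 to 11.7), while the share in comparison cells lay within that interval. Against comparison cells matched on UMIs the ratio was 9.67-fold (6.94 to 13.8).

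The AP-2 transcription factor genes Tfap2c (chr2:172549593-172558622) and Tfap2b (chr1:19208914-19238576), which act in neural crest and facial ectoderm, had the widest ratios. Tfap2c was at 32.3 CPM (25.5 to 40.4) in members from 77 UMIs, and at 0.502 CPM (0.137 to 1.29) in comparison cells from 4 UMIs, a ratio of 64.3-fold (24.1 to 242). Tfap2b was at 21.0 CPM (15.6 to 27.7) from 50 UMIs and 0.502 CPM (0.137 to 1.29) from 4, a ratio of 41.8-fold (15.3 to 159). With so few UMIs on the comparison side the sizes are loose, and against the matched cells they were 19.1 and 12.4. Both genes were seen in a minority of members, 17.1% and 8.70% of them, and both were also present in the library's epithelial-marker cells, at 21.4 and 91.0 CPM. Epithelial markers were lower in members than in comparison cells (above), and how far epithelial RNA enters the AP-2 values was not tested.

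Six2, Eya1 and Dach1, members of gene families that act together in head mesenchyme and sensory organs, were also higher. The homeobox gene Six2 (chr17:85684277-85688274) was at 45.7 CPM (37.5 to 55.2) against 8.16 CPM (6.30 to 10.4), a ratio of 5.6-fold (4.08 to 7.74). Eya1, a transcriptional coactivator and phosphatase gene, was at 70.5 CPM (60.2 to 82.0) against 19.8 CPM (16.9 to 23.2), 3.55-fold (2.84 to 4.44) higher. Dach1, a corepressor, was at 26.0 CPM (19.9 to 33.3) against 5.53 CPM (4.02 to 7.42), 4.71-fold (3.15 to 7.09) higher. All 3 kept a ratio above 2 against the matched cells, at 4.33, 3.70 and 4.39. Lhx6, a LIM homeobox gene of the jaw arch, was 3.76-fold (2.5 to 5.66) higher, and its relative Lhx8 just missed 2-fold at 419.9 CPM (394 to 447) against 217 CPM (207 to 228), a ratio of 1.93-fold (1.79 to 2.09), and passed it against matched cells, at 2.12-fold (1.90 to 2.37).

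Of 49 listed jaw and face transcription factor genes, 26 were over 20 CPM. Of these, 6 were at least 2-fold higher and 1 lower, beside 1.99% and 2.07% of all genes. Their median log2 ratio was 0.22 beside 0.02 over all genes. The 6 were Tfap2b, Pax9, Six2, Lhx6, Eya1 and Prrx2 (140.1 against 67.8 CPM), and the 1 was Foxp2 (7.13 against 22.6 CPM). Prrx2 and Foxp2 were named after their values were seen, to complete the count. Most of the list lay within 2-fold. Barx1, Osr2 and Dlx5, also named after their values were seen, had ratios of 0.991, 1.1 and 0.883. Among 10 measured dental mesenchyme genes, 3 were higher (Pax9, Bmp4 and Lhx6) and 0 lower, with a median of 0.60, and the lists share members. Some of these genes were also higher in neighbouring cells. In the library's 751 Tbx18 cells, set against the same comparison cells, 5 of the 10 dental genes were higher and 1 lower (median 0.86), and 6 of the 26 jaw and face genes were higher and 6 lower, where 1.05% of all 5738 genes were higher and 0.941% lower.

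**Figure D2:**
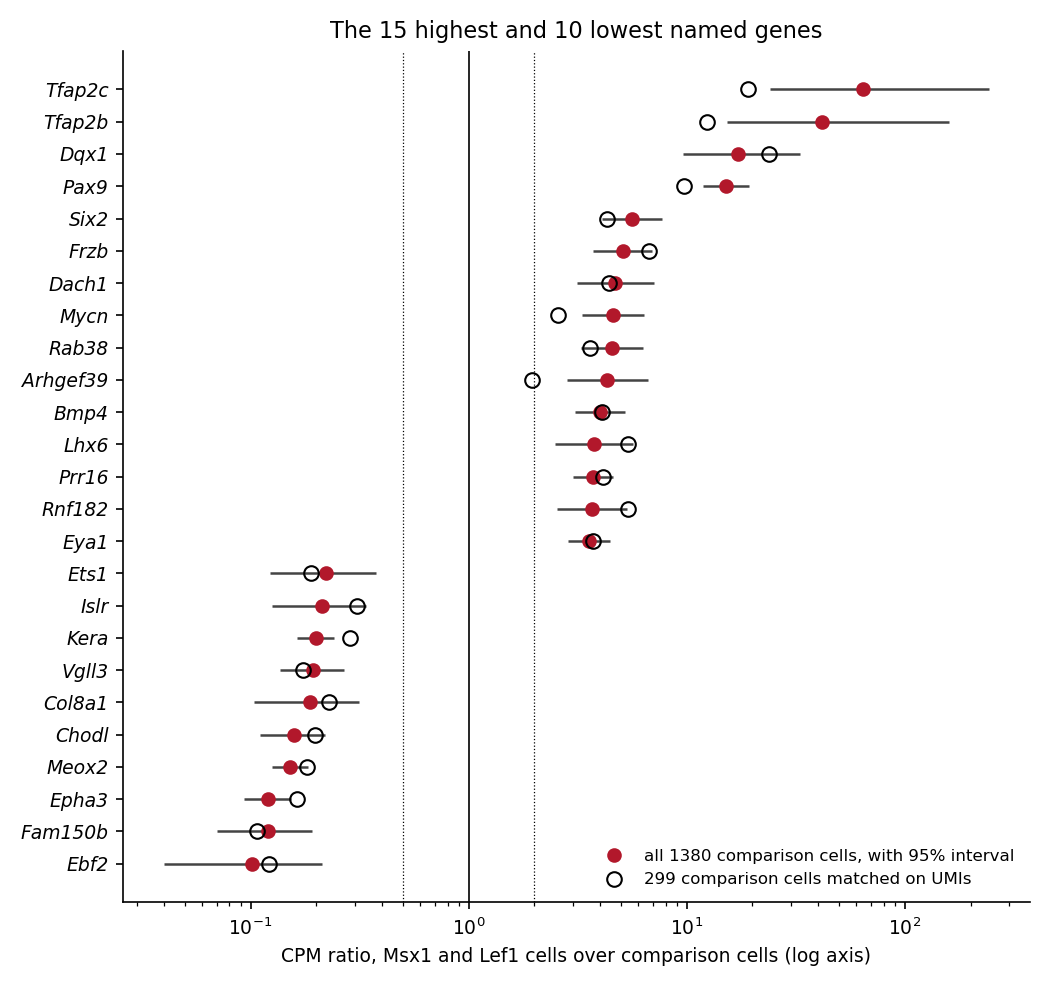
CPM ratio of the 299 members to comparison cells (horizontal log axis) for the 15 highest and 10 lowest named genes, with all 1380 comparison cells (filled, with the 95% counting interval) and with 299 matched on UMIs (open). For Tfap2c, Tfap2b, Pax9, Mycn, Arhgef39, Epha3 and Kera the open circle lies nearer 1 and outside the interval. For Rnf182 it lies farther from 1 and just outside the interval, and all genes keep their side of 1.

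The remaining genes of the 15 have varied roles. Mycn, a MYC family gene of proliferating progenitors, was 4.57-fold (3.31 to 6.34) higher, and Arhgef39, a guanine nucleotide exchange factor gene, 4.32-fold (2.82 to 6.66). Matching on UMIs lowered both, to 2.56 and 1.95. Rab38, a small GTPase of organelle traffic, was 4.54-fold (3.27 to 6.32) higher and Prr16 3.73-fold (3.02 to 4.61), and matching left both within these intervals. Rnf182, a ubiquitin ligase gene, was 3.68-fold (2.55 to 5.33) higher and rose to 5.37 on matching. Dqx1, a helicase-like gene, had a ratio of 17.2-fold (9.61 to 33.0), but 70 of its 72 UMIs in members lay in 1 barcode, so that ratio describes a single cell.

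Because Lef1 and Msx1 proteins bind known DNA motifs, the windows from 250 bases before to 50 after a RefSeq start of each gene were searched on both strands. The motifs were CTTTGAA and CTTTGAT (TCF and LEF factors), TAATTG (MSX-type homeodomains) and GCCNNNGGC (AP-2 factors), of which the first pair share all but their last letter and the others share no such run. Over 32851 RefSeq promoters of this length, 5.14%, 3.73%, 8.0% and 16.6% hold them. Of the 15 highest genes, 10 had a RefSeq promoter, and 2, 1, 2 and 1 of these held each motif. Of the 10 lowest genes 7 had one, and 1, 0, 0 and 1 of these held each motif. A gene was counted when any of its promoters matched, while the shares above are of single promoters, so nothing is read from these counts. The windows of 4 genes are shown, from RefSeq on GRCm38.p6 and written 5′ to 3′ on the gene's strand with motif matches in capitals. Axin2 is shown as a marker of the label, Pax9 for its 15.1-fold ratio, and Dach1 and Tfap2b because they hold 2 matches each. The Pax9 and Tfap2b windows lie inside the GENCODE spans given above, so their RefSeq starts are not the first base of those spans.
Axin2, chr11:108920099-108920398, plus strand: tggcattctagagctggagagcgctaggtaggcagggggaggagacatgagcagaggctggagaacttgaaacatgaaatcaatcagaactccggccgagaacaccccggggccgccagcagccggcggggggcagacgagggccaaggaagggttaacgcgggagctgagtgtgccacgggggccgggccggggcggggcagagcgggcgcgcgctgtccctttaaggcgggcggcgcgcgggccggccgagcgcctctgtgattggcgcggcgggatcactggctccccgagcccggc
Pax9, chr12:56695221-56695520, plus strand: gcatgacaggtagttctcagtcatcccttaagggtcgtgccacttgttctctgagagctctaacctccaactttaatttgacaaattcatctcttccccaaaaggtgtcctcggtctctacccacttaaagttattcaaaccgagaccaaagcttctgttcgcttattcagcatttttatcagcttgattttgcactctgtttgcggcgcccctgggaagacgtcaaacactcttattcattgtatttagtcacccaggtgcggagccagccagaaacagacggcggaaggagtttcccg
Dach1, chr14:98169716-98170015, minus strand: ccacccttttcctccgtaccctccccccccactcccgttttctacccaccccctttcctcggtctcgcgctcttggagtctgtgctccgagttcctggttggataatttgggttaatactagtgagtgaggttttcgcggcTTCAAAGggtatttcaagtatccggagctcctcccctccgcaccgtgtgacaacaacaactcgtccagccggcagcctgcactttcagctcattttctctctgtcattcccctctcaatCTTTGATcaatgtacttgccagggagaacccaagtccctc
Tfap2b, chr1:19211804-19212103, plus strand: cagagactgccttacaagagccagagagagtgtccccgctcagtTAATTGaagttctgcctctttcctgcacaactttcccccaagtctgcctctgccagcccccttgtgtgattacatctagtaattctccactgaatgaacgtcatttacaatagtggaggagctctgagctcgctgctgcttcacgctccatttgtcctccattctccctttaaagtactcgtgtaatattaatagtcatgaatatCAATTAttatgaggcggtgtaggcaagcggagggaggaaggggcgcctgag
The Dach1 window holds CTTTGAA once, read on the opposite strand, and CTTTGAT once, and the Tfap2b window holds TAATTG once on each strand. The Axin2 and Pax9 windows hold 0 of these letters, which says nothing of sites elsewhere. A match is a description of the sequence and not a bound site.

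WNT genes gave smaller ratios. Axin2, a marker set for these cells that the rule did not use, was at 37.8 CPM (30.4 to 46.4) in members and 21.4 CPM (18.3 to 24.8) in comparison cells. That is 1.77-fold (1.35 to 2.30), short of 2-fold, and 1.82-fold (1.27 to 2.64) against matched cells. An Axin2 UMI was found in 24.4% of members and 10.8% of comparison cells, and in 14.0% and 8.07% after thinning, beside 2.92% of the skeletal muscle-marker cells. Axin2 did not set members apart within the parotid mesenchyme, since its level was 45.3 CPM (39.2 to 52.1) in the 611 Pax1 cells and 42.8 CPM (37.1 to 49.2) in the 751 Tbx18 cells, both with intervals that overlap that of members.

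Other genes of the pathway lay on both sides. The Dishevelled-binding WNT inhibitors Nkd1 and Nkd2 were at 42.4 against 26.8 CPM and 34.0 against 19.6 CPM, ratios of 1.58-fold (1.24 to 2.02) and 1.73-fold (1.31 to 2.28). Against matched cells both passed 2-fold, at 2.44-fold (1.68 to 3.60) and 2.01-fold (1.36 to 3.01). Tcf7l2, which encodes a factor of the same family as Lef1, was lower in members, at 87.7 CPM (76.2 to 100.4) against 223 CPM (213 to 234), or 2.54-fold (2.20 to 2.95) lower. Of 9 measured WNT target and feedback genes, 0 were at least 2-fold higher and 1 (Tcf7l2) lower, beside 1.99% and 2.07% of all genes. Their median log2 ratio was 0.55. Against matched cells Nkd1 and Nkd2 were the higher genes, Tcf7l2 stayed lower, and the median was 0.65.

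Secreted WNT modulators were split. Frzb, a secreted antagonist that binds WNT proteins, was at 45.3 CPM (37.2 to 54.7) against 8.92 CPM (6.96 to 11.2), 5.08-fold (3.73 to 6.95) higher. Dkk2, a ligand of the WNT coreceptor that can block or aid the pathway, was at 173 CPM (157 to 190.4) against 78.4 CPM (72.3 to 84.8), 2.21-fold (1.94 to 2.5) higher. Sostdc1, an antagonist of BMP and WNT signals, was 2.38-fold (1.94 to 2.94) lower, at 44.5 against 106 CPM, but only 1.66-fold lower than matched cells, which ends that call. Of 6 measured, 2 were higher and 1 lower, and Sfrp1 was between at 1.61-fold (1.41 to 1.83). Of WNT ligand genes only Wnt5a was measured over 20 CPM, at 47.0 against 52.7 CPM, a ratio of 0.891-fold (0.717 to 1.1), and none of 5 receptor genes, Fzd2 (0.924) and Lrp6 (0.873) among them, reached 2-fold.

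Among BMP genes the ligand Bmp4 (chr14:46383520-46390669), a partner of Msx1 in tooth mesenchyme, was at 53.7 CPM (44.8 to 63.8) in members and 13.4 CPM (11.0 to 16.2) in comparison cells, 4.0-fold (3.07 to 5.21) higher, and 4.10-fold against matched cells. Bmp2, a related ligand, was not higher, at 30.2 against 51.0 CPM. Neither was Fstl1, a secreted BMP antagonist, at 263 against 445 CPM. Of 4 measured ligands and antagonists 1 was higher and 0 lower. Of 9 receptors and targets 0 passed 2-fold in either direction, with a median log2 ratio of 0.01, and the BMP-induced gene Id3 was at a ratio of 1.30-fold (1.21 to 1.38).

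Other signalling lists gave few genes past 2-fold. Of 5 measured FGF pathway genes and 4 Hedgehog pathway genes 0 passed. The FGF feedback genes Dusp6 and Spry2 lay on opposite sides, at ratios of 1.82-fold (1.55 to 2.14) and 0.514-fold (0.421 to 0.623), and the Hedgehog coreceptor Gas1 was at 0.680-fold (0.625 to 0.740). Of 2 measured Notch genes the target Hes1 was 2.30-fold (1.74 to 3.09) lower. Of 7 retinoic acid genes 1 was lower: Crabp1, a retinoic acid-binding protein, was at 48.7 CPM (40.2 to 58.4) against 208 CPM (198 to 218), 4.27-fold (3.54 to 5.2) lower, while Rara stood at a ratio of 0.882.

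The lower side was led by fibroblast, matrix and guidance genes. Ebf1, an early B-cell factor that also acts in mesenchymal progenitors, was at 214 CPM (196 to 233) in members and 898 CPM (877 to 919) in comparison cells, 4.20-fold (3.83 to 4.6) lower. Its relative Ebf2 was at 2.94 CPM (1.18 to 6.05) against 29.0 CPM (25.4 to 33.0), 9.88-fold (4.72 to 24.8) lower. Dlk1, a membrane protein that holds back fat cell differentiation, was 3.45-fold (2.68 to 4.49) lower. Of 14 measured dermal and fibroblast genes, rule genes aside, 0 were higher and 6 lower (Ebf2, Crabp1, Ebf1, Dlk1, Postn and Dcn), with a median of -0.59. Over all genes 2.07% were lower.

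The homeobox gene Meox2 differed in level and in the share of cells. It was at 47.4 CPM (39.1 to 57.0) in members and 312 CPM (299.6 to 324) in comparison cells, 6.58-fold (5.44 to 8.01) lower, with a UMI in 21.1% and 56.7% of barcodes and in 14.3% and 50.8% after thinning. Vgll3, a cofactor of TEAD transcription factors, was 5.16-fold (3.73 to 7.32) lower and the transcription factor gene Ets1 4.49-fold (2.67 to 8.16) lower. Fam150b, which encodes a ligand of the ALK receptor, was 8.35-fold (5.23 to 14.2) lower, and Chodl, a membrane lectin gene, 6.34-fold (4.56 to 9.07). Islr, a surface protein of mesenchymal stromal cells, was 4.71-fold (2.96 to 7.94) lower. Vgll3 and Chodl were each at 63.7 CPM (36.4 to 104) in the 40 Lef1-only members described below. That interval held their levels in comparison cells, 84.4 and 98.3 CPM.

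Matrix genes shared this side. The corneal and tendon proteoglycan gene Kera was at 47.8 CPM (39.4 to 57.5) against 239.5 CPM (229 to 251), 5.01-fold (4.14 to 6.10) lower, and the collagen gene Col8a1 5.33-fold (3.17 to 9.66) lower. Decorin (Dcn), a collagen-binding proteoglycan, was at 262 CPM (242 to 283) against 628 CPM (611 to 645), 2.40-fold (2.21 to 2.61) lower, and periostin (Postn) 2.95-fold (2.34 to 3.79) lower. Of 25 measured matrix genes 0 were higher and 4 lower (Postn, Dcn, Lama4 and Col5a2), beside 2.07% of all genes lower, with a median of -0.39. Against matched cells Postn, Dcn and Lama4 stayed lower, Dcn by 2.02-fold, while Col5a2 was only 1.83-fold lower, which ends that call. Eln, the elastin gene, named after its value was seen, was then higher, with a ratio of 2.27. The structural collagen gene Col1a1 was at 355 against 376 CPM, a ratio of 0.946-fold (0.875 to 1.02), so not all matrix genes were lower. Of 3 tendon genes Kera and Scx were lower, the tendon transcription factor gene Scx by 2.59-fold (1.75 to 3.98). Of 4 osteogenic genes 0 passed.

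Guidance and chemokine genes added to it. Epha3, an ephrin receptor, was at 29.4 CPM (22.9 to 37.1) against 244 CPM (234 to 256), 8.32-fold (6.56 to 10.7) lower, and Epha4, Nrp2 and Cdh2 were 2.44-fold (2.22 to 2.67), 2.42-fold (1.90 to 3.12) and 2.38-fold (1.83 to 3.15) lower. Of 17 measured guidance and adhesion genes 0 were higher and 4 lower, beside 2.07% of all genes lower, with a median of -0.64. Against matched cells Epha3, Nrp2 and Cdh2 stayed lower, and the median of the list was -0.27. Epha4 was then only 1.90-fold lower, which ends that call. Sema5a, a semaphorin gene named after its value was seen, was then higher, with a ratio of 2.24. Cxcl12, the chemokine that guides CXCR4-bearing cells, was at 215 CPM (197 to 234) against 506 CPM (491 to 522), 2.36-fold (2.15 to 2.59) lower, and Cxcl14 at a ratio of 0.748-fold (0.695 to 0.805). Of 12 glycolysis and hypoxia genes 0 were higher and 1 lower, Pdk1, a brake on mitochondrial use of pyruvate, by 2.81-fold (1.77 to 4.71).

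Proliferation genes were higher in members, by an amount that shrank when depth was matched. All 28 listed genes had a ratio above 1 and 15 were at least 2-fold higher, beside 1.99% of all genes, with a median log2 ratio of 1.01. Pax1 cells, set against the same comparison cells, had 2 of the 28 higher, beside 0.61% of all genes, with a median of 0.64. Tbx18 cells had 0 higher, beside 1.05%, with a median of 0.21. The mitotic genes Aurka, Ccnb1, Ube2c and Tpx2 were 2.58-fold (2.21 to 3.02), 2.56-fold (2.30 to 2.84), 2.46-fold (2.29 to 2.64) and 2.44-fold (2.11 to 2.82) higher. A UMI of any of 6 cell-cycle genes was found in 67.9% of members and 38.0% of comparison cells, and in 64.5% and 37.9% after thinning to 4000 UMIs. Before thinning it was found in 59.7% of Pax1 cells and 39.8% of Tbx18 cells. Against comparison cells matched on UMIs, however, 0 of 28 were at least 2-fold higher and the median was 0.27. Depth was higher in members as well, and its part in the difference of these genes beyond the matching was not tested. Hspa1a, a heat shock gene of the dissociation response, was 3.09-fold (2.64 to 3.61) higher, and the other 9 measured genes of that list had ratios below 1.

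**Figure D3:**
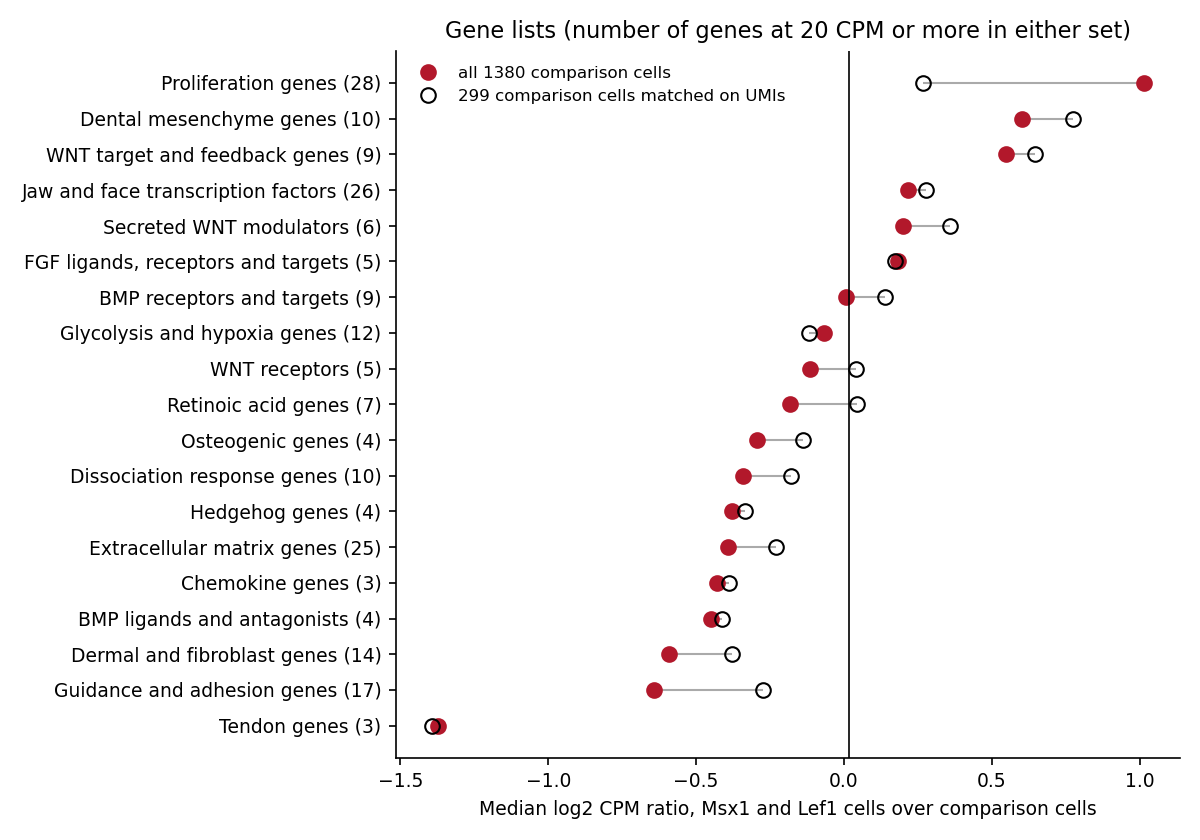
Median log2 CPM ratio of members to comparison cells (horizontal axis) for 19 gene lists, with the number of measured genes in brackets, using all 1380 comparison cells (filled) or 299 matched on UMIs (open). The vertical line is the median of all genes against all 1380 comparison cells, so it is a background for the filled circles only. Proliferation genes drop from 1.01 to 0.27 on matching, dental mesenchyme genes stay above the line, and fibroblast, guidance and tendon genes stay below it.

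Levels were also read along the count of the pair. The values just inside and just outside the threshold, in the 97 members with 3 UMIs and the 166 barcodes with 2, were 163 CPM (133 to 197) and 132 CPM (112 to 155) for Pax9, 20.1 and 8.54 CPM for Tfap2c, and 35.6 and 61.5 CPM for Meox2. Pax9 was already high at 2 UMIs, with 43.4 CPM at 1 UMI and 10.5 at 0, and it was 114 CPM (84.3 to 152) in the 39 members with 9 or more. Tfap2b behaved otherwise. It had 0 UMIs in the members with 3 UMIs of the pair and reached 25.3 CPM (16.1 to 38.0) at 5 to 8 and 50.05 CPM (31.0 to 76.5) at 9 or more. Six2 and Tfap2c also had their highest level in that last step, at 92.9 CPM (66.1 to 127) and 76.3 CPM (52.2 to 108). Axin2 did not, at 21.4 CPM (9.81 to 40.7) there and 51.1 CPM (31.6 to 78.1) at 4 UMIs. The last step rests on Msx1, which was at 1060.5 CPM there and 263 at 3 UMIs, while Lef1 was at 97.7 and 187 CPM, and depth climbs along the steps, from a median of 6307 UMIs at 3 to 9664 at 9 or more.

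**Figure D4:**
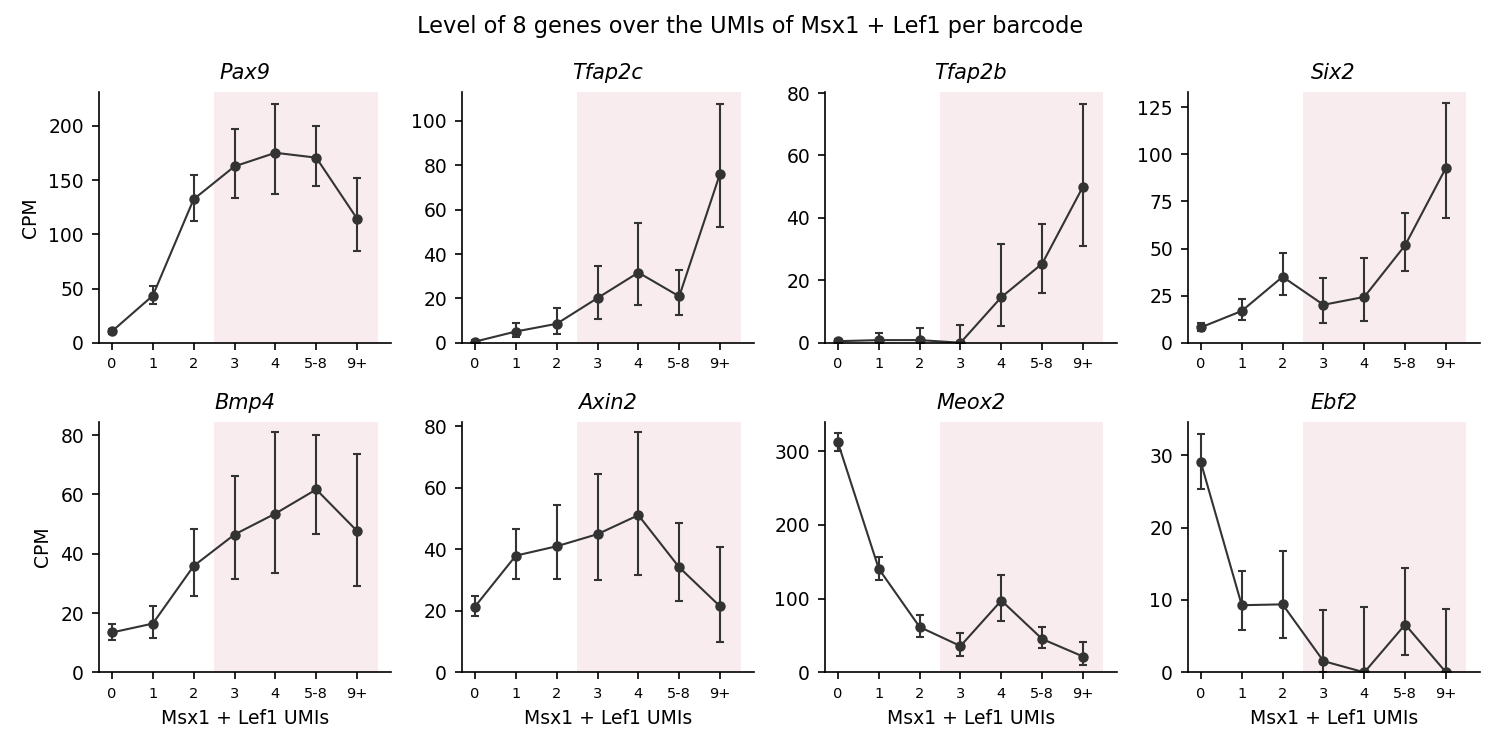
CPM of 8 genes (vertical axes, from 0) in parotid mesenchymal barcodes grouped by their summed Msx1 and Lef1 UMIs (horizontal axis, shaded where barcodes are members), with exact Poisson 95% intervals. Pax9 and Bmp4 are high from 2 or 3 UMIs on, Tfap2b is above 1 CPM from 4, and Meox2 and Ebf2 are highest at 0.

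The members split by which of the genes they carried. Against the Lef1-only members, of 5941 genes with at least 20 CPM in either subset 836 (14.1%) differed by at least 2-fold, 368 higher (6.19%) and 468 lower (7.88%) in the 147 Msx1-only members. That larger share rests on a subset of 40 barcodes, and the subsets were cut by the rule's own genes, so what follows is a description. Mpped2, a metallophosphoesterase gene, was at 198 CPM (173 to 225) in Msx1-only and 7.97 CPM (0.965 to 28.8) in Lef1-only members, from 2 UMIs. Frzb was at 70.9 CPM (56.2 to 88.3) and 3.98 CPM (0.101 to 22.2), and Socs2, a brake on cytokine signals, at 145 CPM (124 to 169) and 7.97 CPM (0.965 to 28.8). Meox2, low in members as a whole, was at 74.5 CPM (59.4 to 92.2) in Msx1-only members and 3.98 CPM (0.101 to 22.2) in Lef1-only ones.

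Several genes of the main comparison followed the same division. Six2 was at 71.8 CPM (57.0 to 89.2) in Msx1-only and 12 CPM (2.46 to 34.9) in Lef1-only members, and Eya1 at 105 CPM (86.6 to 125) and 12 CPM (2.46 to 34.9). Tfap2b was at 34.6 CPM (24.6 to 47.3) in the first and had 0 UMIs in the second, which allows up to 14.7 CPM by the interval. For all 3 the interval in Lef1-only members held the level of comparison cells, so a difference there was not detectable at this depth. Pax9 differed from them: it was at 104 CPM (85.8 to 124) in Msx1-only, 143 CPM (100.5 to 199) in Lef1-only and 226 CPM (198 to 257) in members with both genes, each far above the 10.5 CPM of comparison cells. Bmp4 was at 36.3, 71.7 and 68.7 CPM in the same order.

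WNT feedback genes sat on the Lef1 side. Nkd1 was at 10.6 CPM (5.50 to 18.6) in Msx1-only, 56.7 CPM (43.0 to 73.5) in both-gene and 127 CPM (87.2 to 180.0) in Lef1-only members. Dkk2 was at 77.1 CPM (61.8 to 95.1), 243 CPM (213 to 275) and 323 CPM (256 to 401) in that order, and Axin2 at 25.7 CPM (17.2 to 36.9), 44.8 CPM (32.7 to 59.9) and 63.7 CPM (36.4 to 104). The Lef1-only level was the highest for all 3, and its interval was clear of the Msx1-only one for Nkd1 and Dkk2 but overlapped it for Axin2. Bmp2 was at 12.4, 33.8 and 95.6 CPM. A Tbx18 UMI, under the limit of 3, was found in 28 of the 40 Lef1-only members (70%). In the 751 Tbx18 cells Nkd1, Dkk2 and Axin2 were at 52.7, 292 and 42.8 CPM. The part of Tbx18-bearing barcodes in the Lef1-only levels was not tested. The lowest ratios by the naming rule, Msc, Enpp2, Hpgd, Kcnk2 and Lrrtm3, rested on 8, 7, 12, 6 and 6 UMIs in Lef1-only members and are given as names only.

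When barcodes were taken instead with at least 2 UMIs of Lef1 (170 barcodes) or at least 2 of Msx1 (303 barcodes, 40 of them in both), and set against the same comparison cells, the WNT list differed between them. Of its 9 measured genes 5 were at least 2-fold higher in the Lef1 set, with a median log2 ratio of 1.2, and 0 in the Msx1 set, with a median of 0.06. In both sets 1 of the 9, Tcf7l2, was lower. Over all 5738 genes 1.9% were higher and 2.23% lower in the Lef1 set, and 1.59% and 2% in the Msx1 set. The neighbouring Pax1 and Tbx18 cells had 3 of the 9 higher each, with 0.61% and 1.05% of all genes higher. In Pax1 cells 1 of the 9 was lower, beside 1.45% of all genes. Axin2 was at a ratio of 2.62-fold (1.96 to 3.48) in the Lef1 set and 1.42-fold (1.06 to 1.87) in the Msx1 set. Nkd1 was at 3.39 and 1.04. Pax9 was at 16.6 and 15.2, while Six2 was at 1.93 and 6.51 and Frzb at 0.797 and 5.87. Of the 10 lowest genes, Vgll3, Kera and Col8a1 were within 2-fold in the Lef1 set, at 0.645, 0.570 and 0.636. In the Msx1 set they were lower, at 0.111, 0.143 and 0.122. The rest of the 10 were at least 2-fold lower in both sets. Dcn and Epha4 were at 0.637 and 0.755 in the Lef1 set and 0.354 and 0.336 in the Msx1 set. Both sets share their comparison cells, so the values are given side by side only.

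**Figure D5:**
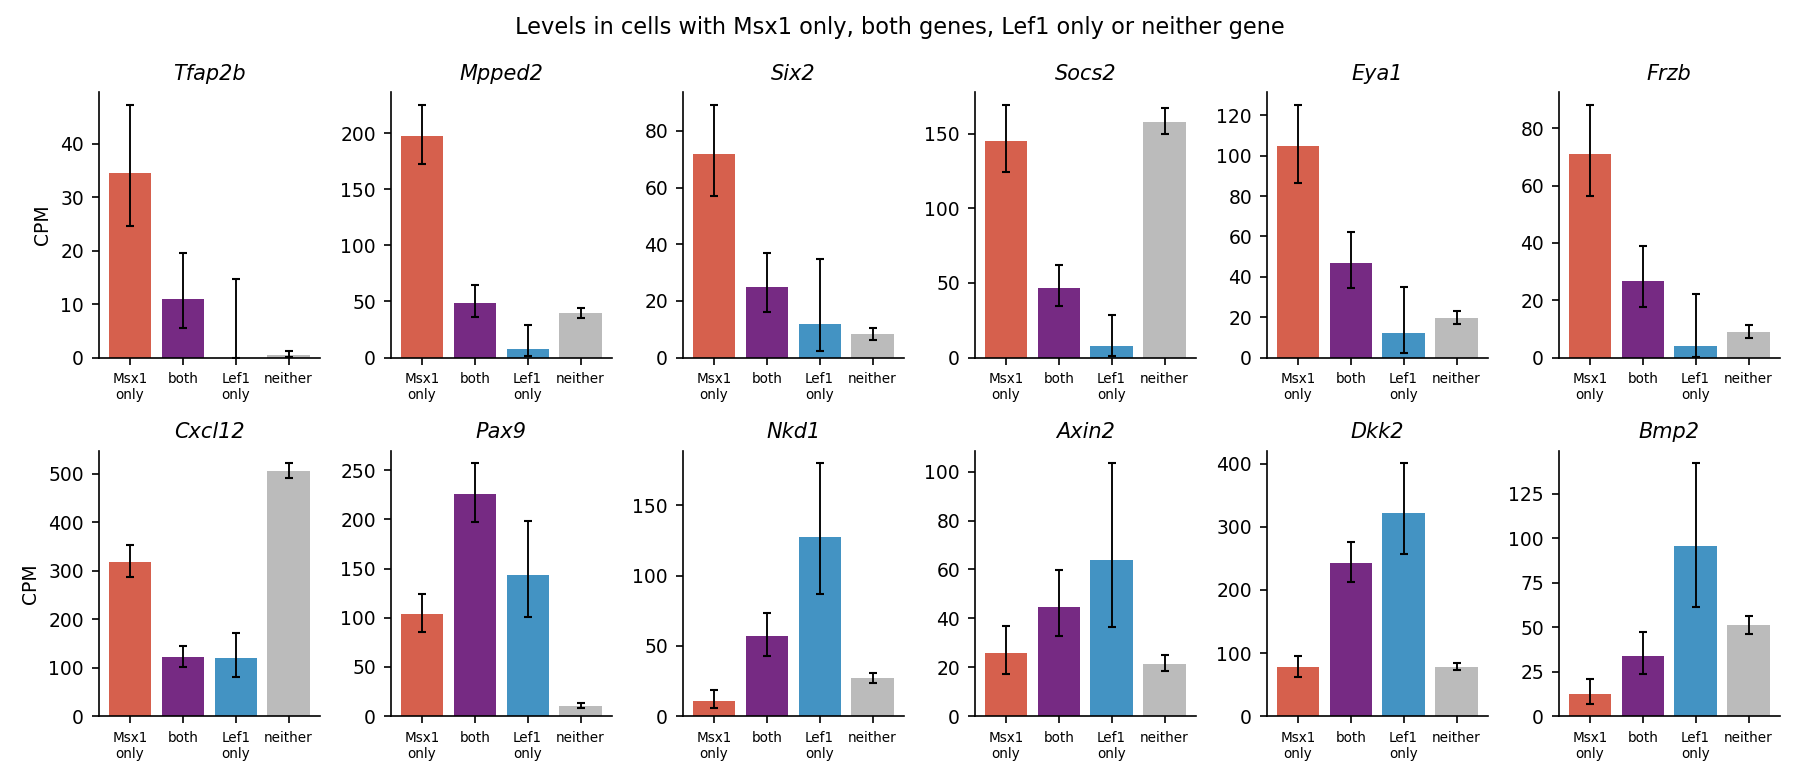
CPM (vertical axes, from 0) with exact Poisson 95% intervals for 12 genes in the 147 Msx1-only, 112 both-gene and 40 Lef1-only members and in the 1380 comparison cells with neither gene. Tfap2b, Mpped2, Six2, Eya1 and Frzb are highest in Msx1-only members, Socs2 and Cxcl12 are high in comparison cells and, among members, highest in Msx1-only ones, Pax9 is high in all members, and Nkd1, Axin2, Dkk2 and Bmp2 are highest in Lef1-only members.

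Members were set against their nearest neighbours in the library, the 611 mesenchymal barcodes with at least 2 Pax1 UMIs and the 751 with at least 3 Tbx18 UMIs, some of which carry Msx1 or Lef1 too. Of the 15 highest genes, picked for their level in members, 14 were also at least 2-fold higher in members than in Pax1 cells, and 11 than in Tbx18 cells, where 1.34% and 1.15% of all 5738 genes were. Since the choice of the genes used the members' counts, nothing is read from this. Pax9 was at 3.19 CPM (1.74 to 5.35) in Pax1 cells and 37.4 CPM (32.1 to 43.4) in Tbx18 cells, against 159 CPM in members. Bmp4 was at 4.56 CPM (2.78 to 7.03) and 21.7 CPM (17.7 to 26.4), against 53.7 CPM. The 4 genes within 2-fold of Tbx18 cells were Rnf182, Dach1, Prr16 and Lhx6, with ratios of 1.26, 1.26, 1.43 and 1.79. Dach1 was at 20.6 CPM (16.7 to 25.2) in Tbx18 cells and 26.0 CPM in members. Dkk2 was higher in Tbx18 cells , at 292 CPM (276 to 308), than in members, at 173 CPM.

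The lower genes divided between the neighbours. Of the 10 lowest, picked in the same way, 7 were also at least 2-fold lower in members than in Pax1 cells and 6 than in Tbx18 cells, beside 1.46% and 2.47% of all genes. Epha3 was at 496 CPM (476 to 517) in Tbx18 cells and 46.5 CPM (40.3 to 53.3) in Pax1 cells, against 29.4 CPM in members. Vgll3 showed the opposite order, with 199 CPM (186 to 213) in Pax1 cells and 27.3 CPM (22.8 to 32.5) in Tbx18 cells, against 16.4 CPM. Ebf2 was lower still in Tbx18 cells, at 0.645 CPM (0.133 to 1.89), than in members at 2.94 CPM, so a low Ebf2 level was shared with them. Meox2 was at 93.4 CPM in Pax1 cells and 63.9 CPM in Tbx18 cells, against 47.4 CPM in members and 312 CPM in comparison cells. Hes1 was at 16.9, 12.3, 23.5 and 54.0 CPM in that order, and Scx at 13.4, 5.59, 11.7 and 30.4 CPM. Low levels of Meox2, Hes1 and Scx were therefore shared with both neighbours. In the submandibular mesenchymal barcodes Pax9 was at 17.6 CPM (15.9 to 19.5), Six2 at 2.30 CPM (1.71 to 3.02) and Bmp4 at 26.7 CPM (24.6 to 28.9).

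A small number of members held a sex-linked transcript. Xist, the RNA that coats the inactive X chromosome of female cells, was found in 19 of 299 members (6.35%) and 10 of 1380 comparison cells (0.725%). The share was 1.52% over all parotid mesenchymal barcodes, 58.4% in submandibular mesenchymal ones and 51.4% in parotid epithelium. Within the parotid mesenchyme library it was 6.02% in the 166 barcodes with 2 UMIs of the pair and 7.14% in the 56 endothelial-marker cells, so it was not particular to members. It was 0.327% in Pax1 cells and 0.399% in Tbx18 cells. Of the 19, 2 also held a Y-linked UMI and 0 shared a barcode sequence with another library. Xist and the genes that follow were chosen after their values were seen.

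In the 19 Xist members Pou3f3, a transcription factor gene, had 0 UMIs (up to 19.6 CPM by the interval), against 74.2 CPM (63.3 to 86.5) in the other 280 members. Pantr1, its neighbouring noncoding gene, was at 58.6 CPM (29.2 to 105) against 814 CPM (776 to 852). In submandibular mesenchymal barcodes Pou3f3 and Pantr1 were at 0.0451 and 0.361 CPM, and the nuclear receptor gene Nr5a2 at 90.5 CPM. Nr5a2 had 0 UMIs in the Xist members. Pax9 was at 373 CPM (291 to 471) in them and 141 CPM (126 to 158) in the other members, and Six2 and Frzb had 1 and 0 UMIs. Hspa1a was at 724 CPM (608 to 857) against 82.9 CPM (71.3 to 95.8).

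Leaving out every barcode with a Xist UMI kept 280 members and 1370 comparison cells and gave 106 genes higher and 121 lower, of which 102 and 113 were among the 114 and 119 of the full sets. The ratio of Pax9 was then 15.5, that of Six2 5.98, that of Bmp4 3.60 and that of Axin2 1.64. Where the 19 barcodes came from was not tested.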

How the data were processed

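Whole-number UMI counts per gene and barcode were deposited by the authors as 1 matrix per library, made with Cell Ranger 2.1.1 on mm10 per the submitters' processing notes. Doublets were not called here, and how far the deposited matrices had been filtered is not given in the sources used here. Counts were summed over the barcodes of each set and divided by the set's total UMIs (CPM), with exact Poisson 95% intervals, exact conditional binomial intervals for ratios and Clopper-Pearson intervals for shares, all covering counting error only. Genes with at least 20 CPM in either set and a ratio of at least 2 were counted as higher or lower. Shares of cells were recomputed after thinning to 4000 UMIs, which left out 6 members and 277 comparison cells. Named genes were the 15 highest and 10 lowest ratios after the stated exclusions, up to 4 of each gene list by absolute log2 ratio, and the 5 highest and 5 lowest between Msx1-only and Lef1-only members, and some of these are not reported here. Marker-positive cells of other types held at least 5 UMIs of their list, or 100 for erythroid markers. The members and gene lists were chosen with earlier results of these data known. Python 3.11.15 with numpy 2.4.6, scipy 1.17.1, pandas 2.3.3 and matplotlib 3.10.9 was used, and edgeR 4.0.16 in R 4.3.3 for TMM scaling. The code was tested on simulated data.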

Additional observations from a re-analysis of the deposited data

How the results depend on the processing

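With 1 library per group, differences between embryos or preparations could not be measured, and low genes rest on few UMIs. No paired analysis was possible because each group is 1 library. Of 67 counts and Axin2 values under 20 alternatives, 52 kept their size. The number of members became 465 with at least 2 UMIs of the pair, 450 without the Pax1 and Tbx18 limits and 175 with Y-linked UMIs and no Xist. The count of higher genes was 75 with at least 2 UMIs, 59 against matched cells, 54 with members taken anew after thinning, 55 at 50 CPM and 1095 with no minimum. The count of lower genes was 77 without the limits, 60 at 50 CPM and 1053 with no minimum. With cells holding no cell-cycle UMI, matched on depth, 228 genes were higher and 296 lower. The Axin2 ratio was 2.62 with at least 2 Lef1 UMIs and 1.25 when barcodes were first thinned to 4000 UMIs and members then taken anew with at least 2 UMIs of the pair. Of 1513 ratios of single genes, 1229 stayed within the counting interval of the reported ratio. Of the 799 ratios of the 47 genes past 2-fold, 8 crossed 1, in 6 genes. Of the 714 of the 42 genes within 2-fold, 49 crossed 1, in 19 genes, so their direction is not firm. Dqx1 reversed to 0.764 without the 5% deepest barcodes, 0.232 with at least 2 Msx1 UMIs and 0.332 among non-cycling matched cells. Frzb reversed to 0.797 with at least 2 Lef1 UMIs. Among non-cycling matched cells Arhgef39 reversed to 0.663, Aurka and Ccnb1 to 0.995 each, and Tpx2 to 0.597. The cause was not tested. Alternatives on Xist, Y-linked and erythroid UMIs, and the non-cycling matched cells, were chosen after seeing the data.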
